A study of Homo sapiens with 12 samples.

Results

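The genes described here copy DNA or supply its building blocks. They are 40 genes of S phase, listed by name for their roles in loading, starting, running and finishing the replication fork, in making deoxynucleotides, in cyclin E and in copying chromatin. All 40 were found among the 15074 genes of the deposited tables after Ensembl identifiers were matched to symbols, and none was dropped by the authors' filter on low values. The rule uses names and no measured value, although the list was drawn up with earlier results of these data known. Replication genes of chromosome 7 (MCM7, RFC2, RPA3 and POLD2) were left out by the rule, and the 40 genes lie on 18 other chromosomes.

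A replication origin is licensed when the origin recognition complex, CDC6 and CDT1 load the ring-shaped MCM helicase onto DNA. In S phase, cyclin E with CDK2 and other kinases turn that ring into an active helicase with CDC45 and the GINS complex, after which primase and the replicative polymerases copy both strands behind it. Many of these genes are transcribed by E2F factors, which the RB protein holds back until cells commit to divide, so their mRNAs are widely used as a sign of cycling cells.

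RNA was measured in HCT116, an established human colorectal carcinoma line. There were 12 libraries, 3 for each of 4 groups. The parental group is unedited HCT116. The knockout group (AGO2_KO) has lost AGO2, the Argonaute protein that microRNAs guide to their target mRNAs. The FH-WT and FH-5xA groups are knockout cells that carry FH-tagged AGO2 again, as the wild-type protein or as the 5xA mutant, in which a cluster of phosphorylated residues is replaced by alanine. The deletion is thus shared by every group but the parental one. Each group is a single cell line grown in triplicate wells, each seeded with 500000 cells and harvested 48 h later, so p-values measure the spread between wells and not between independently made lines. The sources used here do not say whether the lines are clones or what drives the restored AGO2. The series asked which transcripts differ between cells with wild-type and mutant AGO2.

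The values came from 5 tables in which the authors compared pairs of groups, 6 libraries per table. The number of reads behind each library is therefore unknown, and values per library cannot be shown. A fitted level in CPM (read counts scaled to library size) was computed for each group from the deposited mean expression and fold changes. A ± after a log2 fold change is its standard error (SE), derived from the deposited test score, and a gene was called at a false discovery rate (FDR) under 0.05. AGO2 mRNA stood at fitted levels of 205 CPM in parental cells, 161 in the knockout, 270 with FH-WT and 267 with FH-5xA. The AGO2 transcript was thus still present in the knockout, and RNA alone does not show that the protein is gone. Of 6 markers of colon epithelium 5 were measured, and EPCAM, KRT18 and CDH1 were called lower in the knockout. KRT8 and KRT19 were not called there, at log2 fold changes of -0.36 (FDR 0.052) and 0.12 (FDR 0.52) in the authors' deposited table. Of 12 markers of blood, endothelium, fibroblasts or liver only the collagen gene COL1A1 was measured, at fitted levels of 1.83 to 4.99 CPM. COL1A1 was called higher than parental in the knockout, FH-WT and FH-5xA, at 0.59, 0.66 and 1.45 in the authors' deposited tables. In bulk RNA, fewer cells in S phase and less of these mRNAs per cell cannot be told apart.

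E2F factors are known activators of replication genes, so promoter matches to their site are shown first. In RefSeq promoter windows of 300 bases (250 before and 50 after a gene's start, GRCh38.p14), 4 spellings were searched on both strands: TTTCCCGC, TTTCGCGC, TTTGCCGC and TTTGGCGC. A window was matched for 34 of the 40 genes (not MCM4, MCM5, GINS4, POLD3, RPA2 and CCNE2), and 17 of these, 50%, held at least 1 spelling. Over all 27305 genes with a window the share was 3.99%, and over the 10183 of them that the deposited tables measured it was 6.74%. MCM6, a subunit of the MCM ring, had the most matches, with 4. They form a pair of blocks in which a spelling and the reverse complement of another overlap. Its whole window is printed 5′ to 3′ along the gene, with the matched letters in capitals:

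MCM6 chr2:135876394-135876693, minus strand: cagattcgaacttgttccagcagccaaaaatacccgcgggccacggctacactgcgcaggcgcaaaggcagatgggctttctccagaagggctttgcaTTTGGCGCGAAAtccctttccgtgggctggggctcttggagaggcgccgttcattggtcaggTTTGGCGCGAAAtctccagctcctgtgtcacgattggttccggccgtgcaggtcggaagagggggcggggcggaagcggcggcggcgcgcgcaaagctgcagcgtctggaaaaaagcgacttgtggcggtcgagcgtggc

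The next stretches show matches in 9 other genes of the list, none of them a cyclin E gene, each with the match in capitals and 12 bases on each side, written along the gene's own strand:

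CDC6 chr17:40287874-40287905, plus strand: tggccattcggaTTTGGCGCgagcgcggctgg
MCM3 chr6:52284727-52284758, minus strand: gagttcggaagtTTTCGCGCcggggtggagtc
GINS3 chr16:58392454-58392485, plus strand: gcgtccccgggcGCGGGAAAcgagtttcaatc
POLA1 chrX:24693769-24693800, plus strand: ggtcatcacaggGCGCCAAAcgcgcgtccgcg
POLE2 chr14:49688200-49688231, minus strand: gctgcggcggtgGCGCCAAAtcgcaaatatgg
PCNA chr20:5126662-5126693, minus strand: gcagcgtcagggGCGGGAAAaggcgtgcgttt
RFC3 chr13:33818082-33818113, plus strand: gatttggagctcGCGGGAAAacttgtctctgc
TYMS chr18:657602-657633, plus strand: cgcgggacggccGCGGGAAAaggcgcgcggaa
UHRF1 chr19:4909475-4909506, plus strand: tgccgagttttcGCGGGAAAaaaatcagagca

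CDC6 loads the MCM ring, and its match begins 7 bases after the start. MCM3 is another subunit of that ring, and a further match lies upstream of the one shown. GINS3 and POLE2, whose mRNAs differed between the restored lines as described further on, both have the reverse complement of a spelling 5 bases before the start. RFC4 and RFC5, whose mRNAs differed between these lines as well, had windows without a match. The 23 matches in 17 genes began between 174 bases before and 7 bases after the start, with a median of -39, and 17 lay within 100 bases of it. Of them, 9 were as spelled and 14 were reverse complements.

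**Figure D1:**
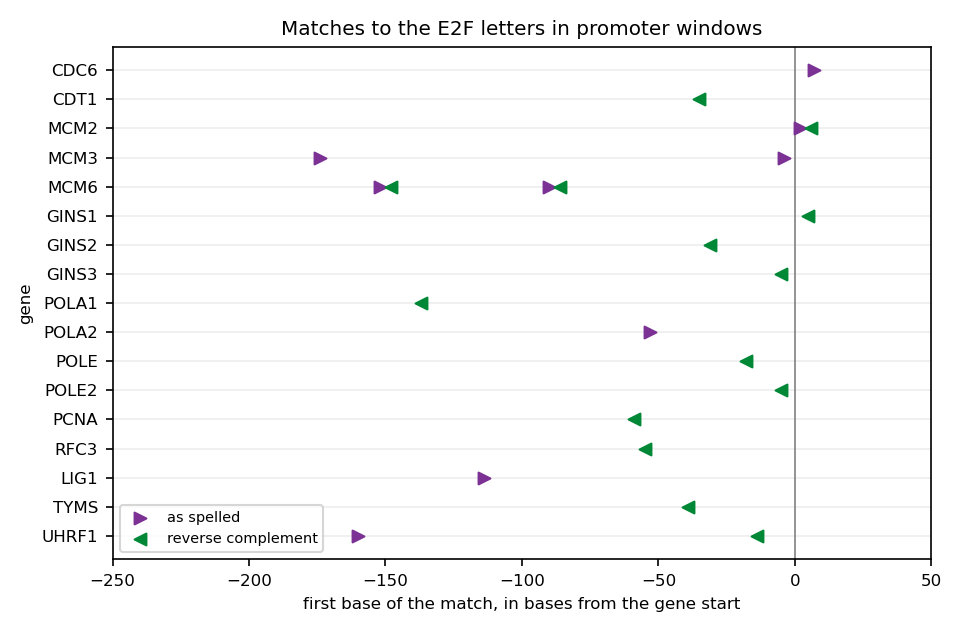
Position of each match to the 4 E2F spellings in the promoter windows of the 17 genes that hold one. The x axis gives the first base of the match in bases from the gene start, and triangles show the strand of the match. The 23 matches run from -174 to 7, and 17 of them lie within 100 bases of the start.

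CCAAT, the letters bound by NF-Y, was found on either strand in 20 of the 34 genes with a window (58.8%), against 43.3% of measured genes. TTTGAA, a core of the element known from late cell cycle promoters, was found in 1 of the 34 genes (2.94%), RRM1, against 13.6% of measured genes. The median log2 fold change of knockout against parental cells was -0.53 for the 17 genes with a match and -0.62 for the 17 without. Over measured genes as a whole it was -0.11 for 687 gene entries with a match and 0.01 for 9497 without. A match is a description of letters and not of binding, and a window without a match says nothing about E2F at that gene.

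In the knockout, mRNA of nearly all of the 40 listed genes was lower than in parental cells. The authors' deposited table for these groups had 37 of the 40 genes called lower and 0 called higher, where 21.2% of all 15074 genes were called lower, 23.2% higher and 44.4% in either direction. All 40 fold changes were below 0. Their median was -0.56 on the log2 scale, against -0.01 for all genes, and they ran from -0.90 for PRIM1 to -0.07 for TYMS. As a share of the parental level, the median gene stood at 68.0%, and 36 of the 40 were under 80%. Summed over the 40 genes, fitted levels made up 0.715% of all fitted expression in parental cells and 0.501% in the knockout. The 3 genes not called were TYMS, CCNE1 and POLD1.

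**Figure D2:**
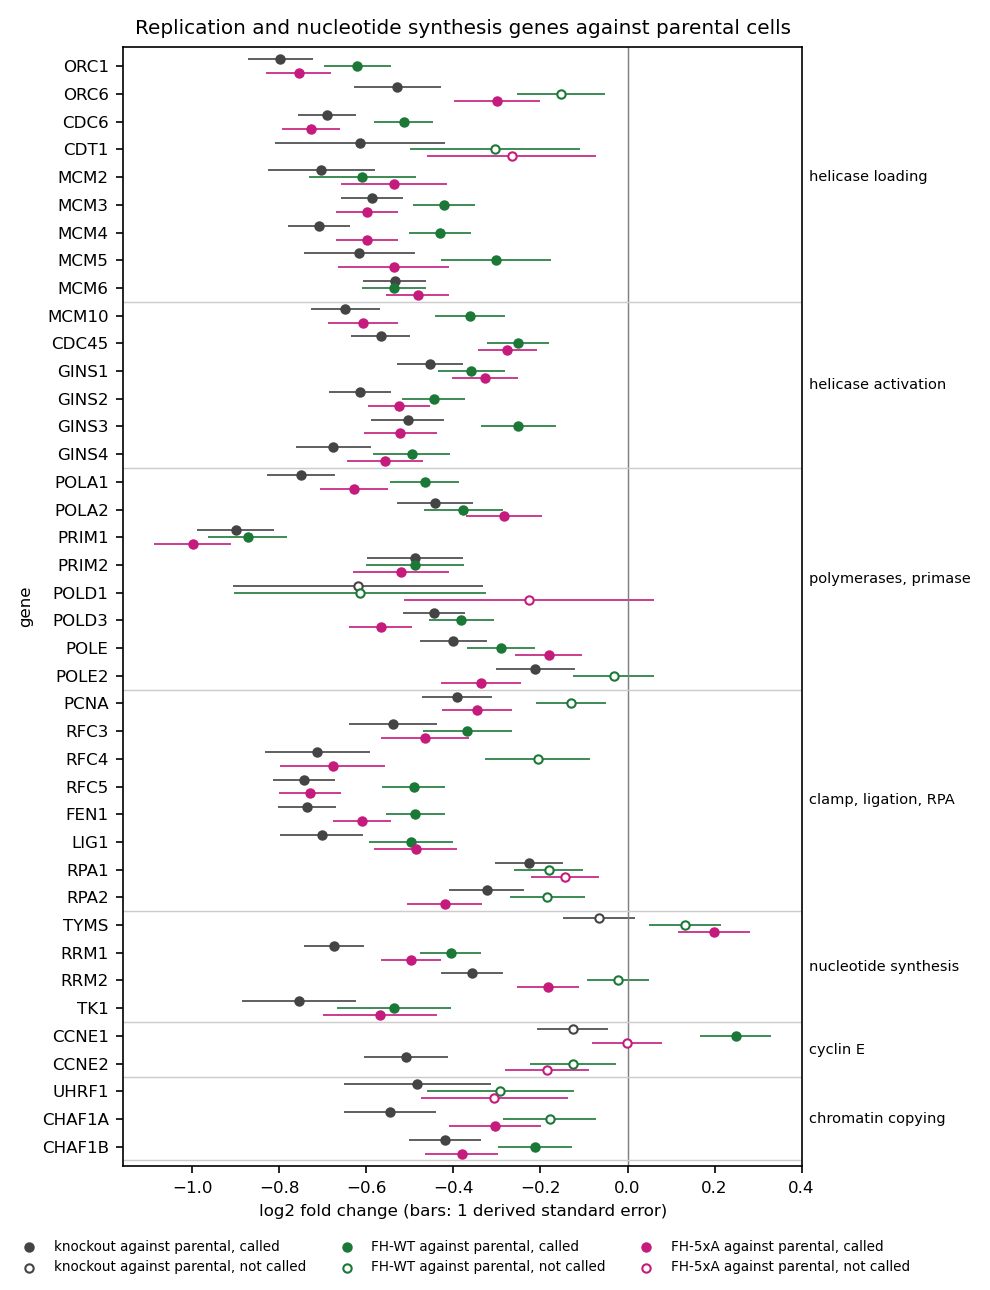
Log2 fold change of each gene against parental cells in the knockout (grey), FH-WT (green) and FH-5xA (magenta), ordered by role. Bars are 1 derived standard error, and filled points passed a false discovery rate of 0.05. In the knockout all 40 points lie below 0 and 37 are filled, while CCNE1 in FH-WT and TYMS in FH-5xA are the filled points above 0.

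Licensing genes fell throughout: all 9 listed genes that load the helicase (ORC1, ORC6, CDC6, CDT1 and MCM2 to MCM6) were called lower in the knockout, with a median of -0.62. ORC1, the large subunit of the origin recognition complex, stood at fitted levels of 91.5 CPM in parental cells, 52.6 in the knockout, 59.5 with FH-WT and 54.2 with FH-5xA. Its log2 fold change in knockout against parental cells was -0.80 ± 0.07 (FDR 7.3e-25) in the authors' deposited table, the largest fall of the role. CDC6, the loading ATPase, stood at 274, 170, 192 and 165 CPM in the same order of groups. All 3 knockout-derived lines lay well below parental cells for both genes. MCM4, a ring subunit, was at 726 CPM in parental cells, 444 in the knockout, 539 with FH-WT and 479 with FH-5xA. MCM3, another ring subunit, was at 495, 330, 370 and 327 CPM.

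The 5 listed ring subunits were all called lower, while MCM7, the ring subunit left out with chromosome 7, was not called. The authors' deposited table gave log2 fold changes in the knockout of -0.70 ± 0.12 for MCM2, -0.62 ± 0.13 for MCM5 and -0.53 ± 0.07 for MCM6, beside -0.71 ± 0.07 for MCM4 and -0.59 ± 0.07 for MCM3. ORC6, the small origin subunit, was at -0.53 ± 0.10 there, and CDT1, the partner of CDC6 in loading, at -0.62 ± 0.20, again from the authors' deposited table. The SE of CDT1 was more than that of any other licensing gene, and its FDR in the authors' deposited table was 0.0052. MCM7 was at -0.13 ± 0.08 (FDR 0.15) in the authors' deposited table. The genes left out with chromosome 7 differed with position along it. RPA3 and POLD2, from bases 7636518 and 44114681, were called lower than parental in each knockout-derived line in the authors' deposited tables. RFC2 and MCM7, from bases 74231499 and 100092728, were called in none of these lines. The cause was not tested.

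All 6 genes that turn the loaded ring into a working helicase also fell, with a median of -0.59. GINS2, a subunit of the 4-part GINS complex, stood at 98.3 CPM in parental cells, 64.2 in the knockout, 72.2 with FH-WT and 68.3 with FH-5xA. GINS4, of the same complex, was at 42.0, 26.3, 29.8 and 28.5 CPM. CDC45, which travels with the ring, was at 56.2, 37.9, 47.2 and 46.4 CPM. Both restored lines thus lay between knockout and parental cells for these 3 genes. MCM10, a scaffold of the starting fork, was at 205 CPM in parental cells, 131 in the knockout, 159 with FH-WT and 134 with FH-5xA, so that FH-5xA stayed near the knockout. GINS3 followed MCM10 in this, at 48.3, 34.0, 40.6 and 33.6 CPM. Log2 fold changes in knockout against parental cells were -0.68 ± 0.09 for GINS4, -0.65 ± 0.08 for MCM10, -0.61 ± 0.07 for GINS2 and -0.57 ± 0.07 for CDC45 in the authors' deposited table. GINS3 was at -0.51 ± 0.08 and GINS1 at -0.45 ± 0.08 in the authors' deposited table, the smaller falls of the role.

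Of the 8 polymerase and primase genes 7 were called lower, with a median of -0.47. PRIM1, the catalytic subunit of primase, which lays the RNA primers, showed the largest fall of all 40 genes. It stood at 83.1 CPM in parental cells, 44.5 in the knockout, 45.4 with FH-WT and 41.6 with FH-5xA, and its log2 fold change was -0.90 ± 0.09 (FDR 8.0e-23) in the authors' deposited table. Both restored lines had the knockout level. PRIM2, its regulatory partner, was at 53.3, 38.0, 38.0 and 37.2 CPM. PRIM2 fell less, by 0.49 ± 0.11 on the log2 scale in the authors' deposited table. POLA1, the catalytic subunit of polymerase alpha, which extends the primers, was at 151 CPM in parental cells, 89.9 in the knockout, 109 with FH-WT and 97.7 with FH-5xA. Its accessory subunit POLA2, the gene with the lowest mean CPM of the 40 (not scaled for length), was at 36.3, 26.7, 27.9 and 29.8 CPM. In the authors' deposited table these correspond to -0.75 ± 0.08 for POLA1 and -0.44 ± 0.09 for POLA2.

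Genes of the polymerases that copy the bulk of the genome differed among themselves. POLD3, a subunit of polymerase delta, was at 55.8 CPM in parental cells, 41.0 in the knockout, 42.8 with FH-WT and 37.7 with FH-5xA. POLE, the catalytic subunit of the leading strand polymerase epsilon, was at 202, 153, 165 and 178 CPM. Its partner POLE2 was at 50.6, 43.7, 49.5 and 40.1 CPM. FH-5xA was thus above FH-WT for POLE and below it for POLE2, 2 subunits of 1 enzyme. Log2 fold changes in the knockout were -0.44 ± 0.07 for POLD3, -0.40 ± 0.08 for POLE and -0.21 ± 0.09 for POLE2 in the authors' deposited table, the last at an FDR of 0.045. POLD1, the catalytic subunit of polymerase delta, was at -0.62 ± 0.29 in the authors' deposited table and was not called (FDR 0.067). Its SE was the largest of the 40 genes, and its transcript had the highest GC content of them, 65.0%. The SE was at least 0.15 for CDT1 and UHRF1 as well, with GC contents of 64.9% and 54.6%. A further subunit of polymerase delta, POLD2, lies on chromosome 7 and was at -1.24 ± 0.10 in the authors' deposited table.

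All 8 genes of the sliding clamp, its loader, Okazaki fragment joining and single-strand binding were called lower, with a median of -0.62. FEN1, the flap nuclease that trims Okazaki fragments, stood at 270 CPM in parental cells, 162 in the knockout, 193 with FH-WT and 177 with FH-5xA. LIG1, which seals the trimmed ends, was at 92.5, 56.9, 65.6 and 66.0 CPM. Both fell by like amounts, -0.74 ± 0.07 for FEN1 and -0.70 ± 0.10 for LIG1 in the authors' deposited table. PCNA is the sliding clamp that tethers polymerases. It was at 500 CPM in parental cells, 381 in the knockout, 457 with FH-WT and 393 with FH-5xA. PCNA fell by 0.39 ± 0.08 on the log2 scale in the authors' deposited table.

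The 3 listed clamp loader genes had larger falls than the clamp gene PCNA, and RFC2, a loader gene left out with chromosome 7, did not pass. RFC5 was at 206 CPM in parental cells, 123 in the knockout, 146 with FH-WT and 124 with FH-5xA. RFC4 was at 158, 96.1, 137 and 98.5 CPM, the clearest case of a gene that was higher in FH-WT and not in FH-5xA. RFC3 was at 86.4, 59.5, 67.0 and 62.6 CPM. Log2 fold changes in the knockout were -0.74 ± 0.07 for RFC5, -0.71 ± 0.12 for RFC4 and -0.54 ± 0.10 for RFC3 in the authors' deposited table. RFC2, the loader subunit on chromosome 7, was at -0.15 ± 0.09 in the authors' deposited table and was not called. The smallest called falls of the role were those of the single-strand binding protein RPA, at -0.32 ± 0.09 for RPA2 and -0.23 ± 0.08 for RPA1 in the authors' deposited table. RPA2 stood at 119, 95.1, 105 and 88.9 CPM. Another subunit, RPA3, on chromosome 7, was at -1.77 ± 0.15 in the authors' deposited table.

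Of the 4 enzymes of deoxynucleotide supply 3 fell, and thymidylate synthase did not pass the test. TK1, the thymidine salvage kinase, stood at 183 CPM in parental cells, 108 in the knockout, 126 with FH-WT and 123 with FH-5xA. RRM1, the large subunit of ribonucleotide reductase, was at 354, 222, 267 and 251 CPM. RRM2, its small subunit, was at 589, 459, 580 and 519 CPM. FH-WT thus reached 98.5% of the parental level for RRM2 and 75.4% for RRM1. Log2 fold changes in knockout against parental cells were -0.75 ± 0.13 for TK1, -0.67 ± 0.07 for RRM1 and -0.36 ± 0.07 for RRM2 in the authors' deposited table. TYMS, which makes thymidylate, was at 140 CPM in parental cells, 134 in the knockout, 153 with FH-WT and 160 with FH-5xA. Its fold change of -0.07 ± 0.08 (FDR 0.54) in the authors' deposited table was the smallest of the 40. ENOSF1 overlaps TYMS on the opposite strand over 3255 bases and stood at 61.4, 50.7, 52.7 and 57.7 CPM. The sources used here do not say whether counting used strand, so reads of the shared stretch may belong to either gene.

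The cyclin E genes split. CCNE2 stood at 68.3 CPM in parental cells, 48.0 in the knockout, 62.6 with FH-WT and 60.1 with FH-5xA, and CCNE1 at 51.9, 47.6, 61.7 and 51.9 CPM. In the authors' deposited table CCNE2 was at -0.51 ± 0.10 in the knockout, while CCNE1 was at -0.13 ± 0.08 and was not called (FDR 0.20). The 3 genes that copy chromatin state all fell. UHRF1, which brings the maintenance DNA methyltransferase to new DNA, was at 105, 75.3, 86.0 and 85.2 CPM. CHAF1A and CHAF1B are subunits of the chromatin assembly factor CAF-1. CHAF1A was at 118, 80.8, 104 and 95.4 CPM and CHAF1B at 73.9, 55.2, 63.7 and 56.7 CPM. Log2 fold changes in the knockout were -0.55 ± 0.11 for CHAF1A, -0.48 ± 0.17 for UHRF1 and -0.42 ± 0.08 for CHAF1B in the authors' deposited table.

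Replication mRNA was partly higher with restored wild-type AGO2 than in the knockout, and fewer genes passed the test with the mutant. With the mutant, the share of the list called was near that of all genes called in either direction. In FH-WT against knockout the authors' deposited table had 15 of the 40 genes called higher and 0 lower, where 4.21% of all genes were called higher, 5.85% lower and 10.1% in either direction. In FH-5xA against knockout the authors' deposited table had 4 called higher and 0 lower, where 5.04% of all genes were called higher, 6.24% lower and 11.3% in either direction. The median log2 fold change was 0.20 in FH-WT and 0.11 in FH-5xA, against 0.01 for all genes in each. At an unadjusted p under 0.05 the counts were 24 and 9, where 3617 and 3709 of all 15074 genes passed. The 2 comparisons share the knockout libraries, so their values are set side by side and the difference between the lines is tested on its own below.

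**Figure D3:**
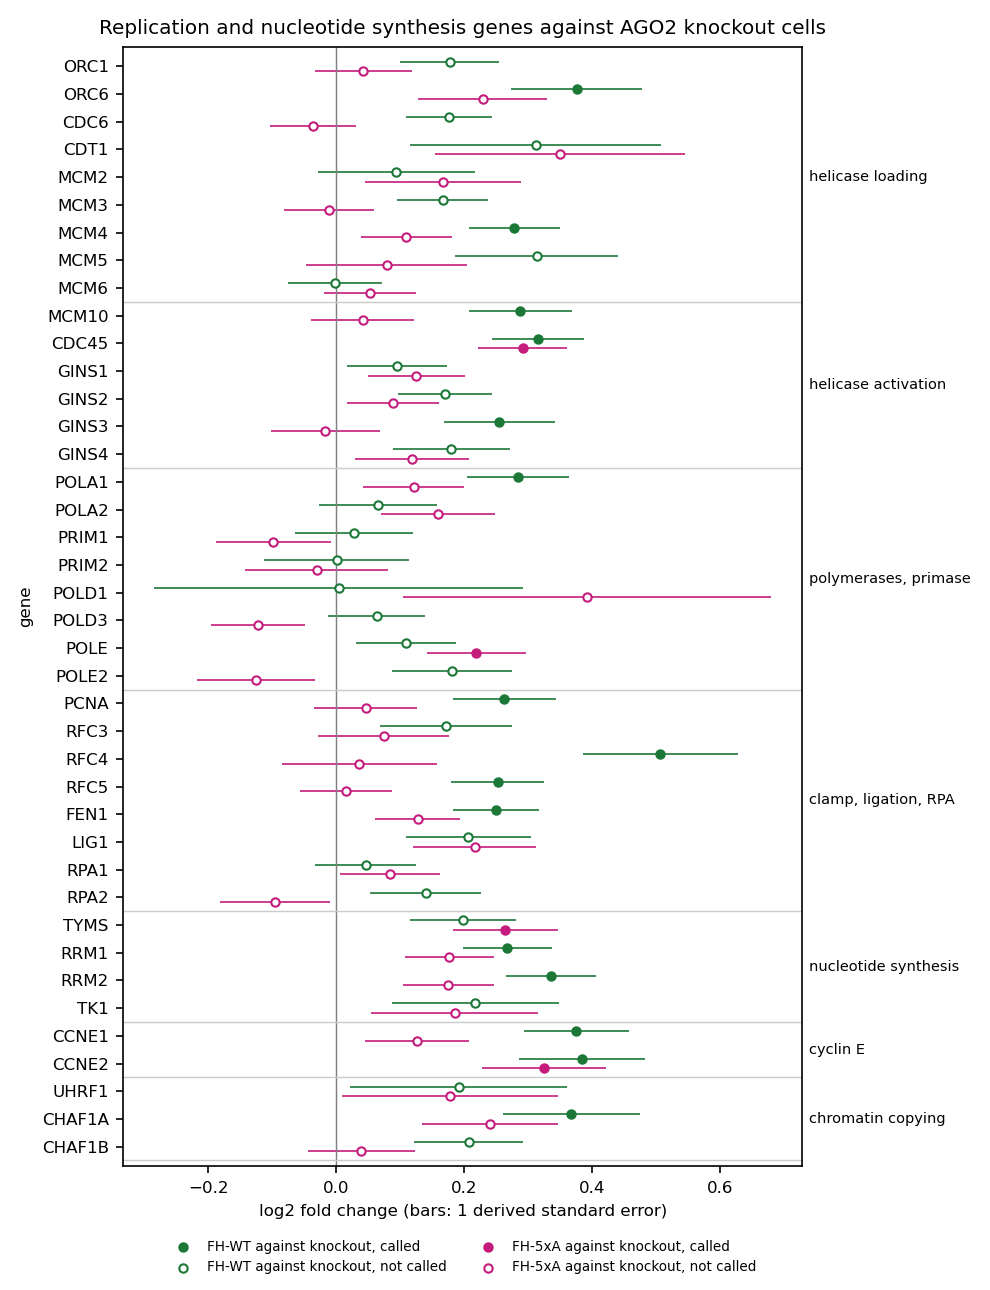
Log2 fold change of each gene in FH-WT (green) and FH-5xA (magenta) against knockout cells, ordered by role. Bars are 1 derived standard error, and filled points passed a false discovery rate of 0.05. Of the 40 genes 15 are filled for FH-WT and 4 for FH-5xA, and RFC4 has the widest gap between filled and open points.

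CDC45 and CCNE2 were called higher with either protein. CDC45 was at 0.32 ± 0.07 with FH-WT and 0.29 ± 0.07 with FH-5xA, and CCNE2 at 0.38 ± 0.10 and 0.32 ± 0.10 per the authors' deposited tables against knockout. Another 13 genes were called in FH-WT and not in FH-5xA: ORC6, MCM4, MCM10, GINS3, POLA1, PCNA, RFC4, RFC5, FEN1, RRM1, RRM2, CCNE1 and CHAF1A. RFC4 rose most, by 0.51 ± 0.12 (FDR 0.0013) in the authors' deposited table for FH-WT, and was at 0.04 ± 0.12 in that for FH-5xA. POLE and TYMS were called in FH-5xA and not in FH-WT. POLE was at 0.22 ± 0.08 (FDR 0.044) in FH-5xA and 0.11 ± 0.08 in FH-WT, and TYMS at 0.26 ± 0.08 (FDR 0.017) and 0.20 ± 0.08 per the authors' deposited tables.

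By role, the licensing genes held 2 of 9 calls in FH-WT and 0 of 9 in FH-5xA. ORC6 rose by 0.38 ± 0.10 and MCM4 by 0.28 ± 0.07 in the authors' deposited table for FH-WT, against 0.23 ± 0.10 and 0.11 ± 0.07, not called, in that for FH-5xA. ORC1 was at 0.18 ± 0.08 and 0.04 ± 0.08, CDC6 at 0.18 ± 0.07 and -0.04 ± 0.07, and MCM3 at 0.17 ± 0.07 and -0.01 ± 0.07, none called per the authors' deposited tables. These 3 genes lay a little above the knockout in FH-WT and at its level in FH-5xA. MCM6 was level with the knockout in both lines, at -0.0016 ± 0.07 and 0.05 ± 0.07 per the authors' deposited tables. Of the helicase activation genes 3 of 6 were called in FH-WT and 1 of 6 in FH-5xA. MCM10 was at 0.29 ± 0.08 with FH-WT and 0.04 ± 0.08 with FH-5xA, and GINS3 at 0.25 ± 0.09 and -0.02 ± 0.09 per the authors' deposited tables. Both were thus at the knockout level in FH-5xA. GINS2 and GINS4 were not called, with 0.17 ± 0.07 and 0.18 ± 0.09 in FH-WT and 0.09 ± 0.07 and 0.12 ± 0.09 in FH-5xA per the authors' deposited tables.

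Of the polymerase genes 1 of 8 was called in each line, POLA1 in FH-WT and POLE in FH-5xA. POLA1 rose by 0.28 ± 0.08 in FH-WT and was at 0.12 ± 0.08 in FH-5xA per the authors' deposited tables. PRIM1, POLD3 and POLE2 were above the knockout in FH-WT, at 0.03 ± 0.09, 0.06 ± 0.08 and 0.18 ± 0.09, and below it in FH-5xA, at -0.10 ± 0.09, -0.12 ± 0.07 and -0.13 ± 0.09, none called per the authors' deposited tables. POLA2, the partner of POLA1, was at 0.06 ± 0.09 and 0.16 ± 0.09, not called per the authors' deposited tables. The clamp and ligation genes held 4 of 8 calls in FH-WT and 0 of 8 in FH-5xA. PCNA rose by 0.26 ± 0.08, RFC5 by 0.25 ± 0.07 and FEN1 by 0.25 ± 0.07 in the authors' deposited table for FH-WT. In FH-5xA the same genes were at 0.05 ± 0.08, 0.01 ± 0.07 and 0.13 ± 0.07, none called in the authors' deposited table. The clamp, subunits of its loader and the flap nuclease thus rose in FH-WT. LIG1 and RFC3 were not called in either line, at 0.21 ± 0.10 and 0.17 ± 0.10 in FH-WT and 0.22 ± 0.10 and 0.07 ± 0.10 in FH-5xA per the authors' deposited tables.

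RRM2 rose by 0.34 ± 0.07 and RRM1 by 0.27 ± 0.07 in FH-WT, and both were at 0.18 ± 0.07 in FH-5xA without a call per the authors' deposited tables. The salvage enzyme TK1 was at 0.22 ± 0.13 and 0.18 ± 0.13, not called per the authors' deposited tables. CCNE1 rose by 0.37 ± 0.08 (FDR 3.2e-04) in FH-WT and was at 0.13 ± 0.08 in FH-5xA per the authors' deposited tables. CHAF1A rose by 0.37 ± 0.11 in FH-WT and was at 0.24 ± 0.11 in FH-5xA, while CHAF1B was at 0.21 ± 0.09 and 0.04 ± 0.08 and UHRF1 at 0.19 ± 0.17 and 0.18 ± 0.17, not called per the authors' deposited tables. Of the 17 genes with an E2F match 3 were called in FH-WT, and of the 17 without 10 were, counts given as a description with no test. Over measured genes as a whole, 69 of 687 gene entries with a match and 1022 of 9497 without were called, in either direction.

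For most of the 40 genes the mutant line, and for 26 of them the wild-type line too, had less mRNA than parental cells. In FH-WT against parental cells the authors' deposited table had 26 of the 40 genes called lower and 1 higher, where 16.1% of all genes were called lower, 18.3% higher and 34.4% in either direction. In FH-5xA the authors' deposited table had 33 called lower and 1 higher, where 20.9% of all genes were called lower, 22.9% higher and 43.8% in either direction. The median gene stood at 77.7% of its parental level in FH-WT and 71.5% in FH-5xA, beside 68.0% in the knockout, and 22 and 27 of the 40 were under 80%. Summed fitted levels of the 40 genes were 0.555% of all fitted expression in FH-WT and 0.540% in FH-5xA. All 3 values share the parental libraries.

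**Figure D4:**
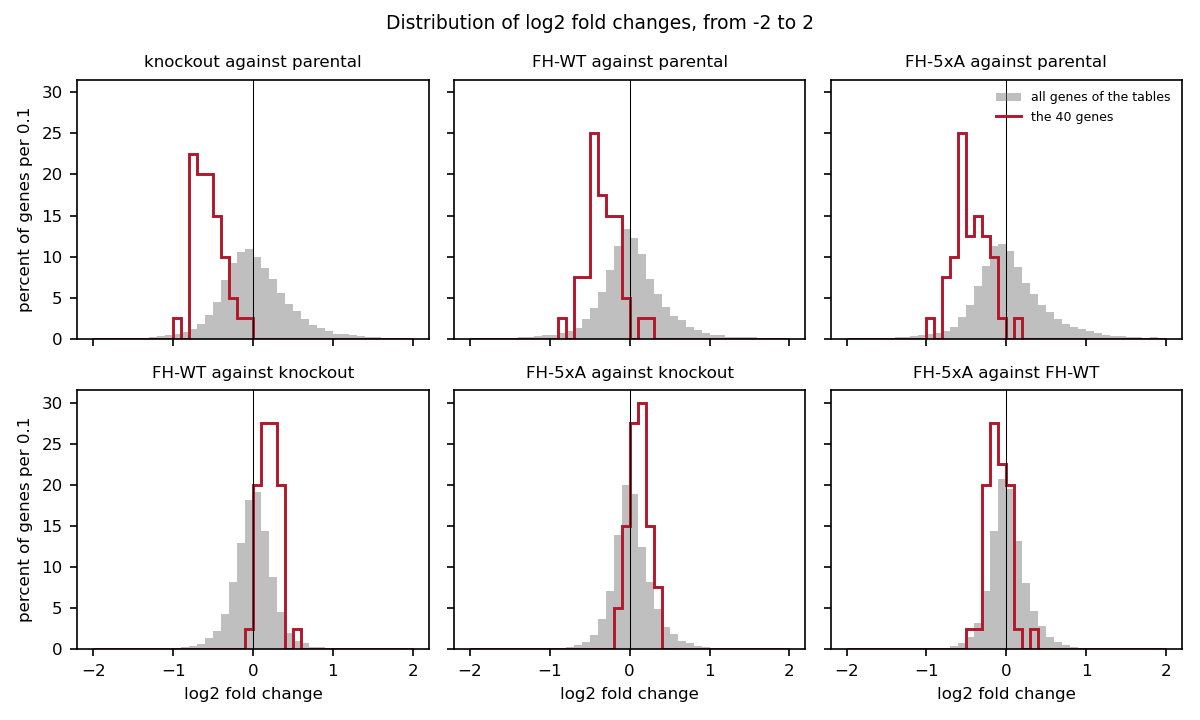
Log2 fold changes of the 40 genes (red outline) and of all 15074 genes (grey) in the 5 deposited comparisons and the derived one of FH-5xA against FH-WT. The y axis is the percent of genes per bin of 0.1, over log2 values from -2 to 2. The median of the 40 genes is -0.56 in the knockout, -0.36 with FH-WT and -0.48 with FH-5xA against parental cells, and -0.12 in FH-5xA against FH-WT.

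The 26 genes lower in FH-WT were lower in FH-5xA as well. They hold PRIM1, at 54.6% of the parental level in FH-WT and 50.04% in FH-5xA, the least of the 40 in each line. ORC1 was at 65.0% and 59.2%, TK1 at 68.9% and 67.4% and CDC6 at 70.0% and 60.4%. A further 7 genes were called lower in FH-5xA and not in FH-WT: ORC6, POLE2, PCNA, RFC4, RPA2, RRM2 and CHAF1A. RFC4 stood at 86.7% with FH-WT and 62.5% with FH-5xA, and PCNA at 91.4% and 78.6%. RRM2 was at -0.02 ± 0.07 with FH-WT and -0.18 ± 0.07 with FH-5xA, and POLE2 at -0.03 ± 0.09 and -0.34 ± 0.09 per the authors' deposited tables against parental cells. CDT1, POLD1, RPA1, CCNE2 and UHRF1 were called in neither line.

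Above the parental level stood CCNE1 in FH-WT and TYMS in FH-5xA. CCNE1 was higher by 0.25 ± 0.08 (FDR 0.010) in FH-WT and at -0.00057 ± 0.08 in FH-5xA per the authors' deposited tables. TYMS was higher by 0.20 ± 0.08 (FDR 0.037) in FH-5xA and at 0.13 ± 0.08 in FH-WT per the authors' deposited tables. CCNE1 is thus the gene of the list whose FH-WT level, 119% of parental, lay highest, and TYMS, at 115%, the one in FH-5xA.

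Set directly against FH-WT, the mutant line had less mRNA of 5 replication genes. No deposited table compares these lines, so the difference was derived from the tables against knockout, with a chi-square test and Benjamini-Hochberg adjustment across 15072 genes. Of the 40 genes 5 were called lower and 0 higher, where 2.13% of all genes were called lower, 1.98% higher and 4.11% in either direction. At an unadjusted p under 0.05 there were 14, where 2909 of all 15072 genes passed. In all, 30 of the 40 differences were below 0, with a median of -0.12, while 7297 of all 15072 were below 0 with a median of 0.01. RFC4 had the largest derived difference, -0.47 ± 0.12 (adjusted p = 0.0090). POLE2 followed at -0.31 ± 0.09 (adjusted p = 0.037), then GINS3 at -0.27 ± 0.09 (adjusted p = 0.046), RFC5 at -0.24 ± 0.07 (adjusted p = 0.036) and CDC6 at -0.21 ± 0.07 (adjusted p = 0.044).

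These 5 genes come from 4 roles: 2 clamp loader subunits, a polymerase epsilon subunit, a GINS subunit and the licensing ATPase. In fitted levels, FH-5xA lay near the knockout for RFC4, RFC5, GINS3 and CDC6 and below it, with no call against the knockout, for POLE2. Just outside the threshold were MCM10 at -0.25 ± 0.08 (adjusted p = 0.053) and CCNE1 at -0.25 ± 0.08 (adjusted p = 0.055). PCNA at -0.22 ± 0.08 (adjusted p = 0.095) and RPA2 at -0.24 ± 0.09 (adjusted p = 0.091) were not called. For ORC1 the difference was -0.13 ± 0.08, for MCM3 -0.18 ± 0.07, for MCM4 -0.17 ± 0.07, for POLA1 -0.16 ± 0.08 and for POLD3 -0.19 ± 0.08, without a call. The licensing genes MCM2, MCM6 and CDT1 lay above 0, at 0.07 ± 0.12, 0.05 ± 0.07 and 0.04 ± 0.20. CDC45, GINS2 and GINS4, all of helicase activation, were at -0.02 ± 0.07, -0.08 ± 0.07 and -0.06 ± 0.09. PRIM1 was at -0.13 ± 0.09, FEN1 at -0.12 ± 0.07, LIG1 at 0.01 ± 0.10 and RFC3 at -0.10 ± 0.10. None of these 7 genes was called. The nucleotide enzymes were at -0.16 ± 0.07 for RRM2, -0.09 ± 0.07 for RRM1, -0.03 ± 0.13 for TK1 and 0.07 ± 0.08 for TYMS. CCNE2 was at -0.06 ± 0.10, CHAF1A at -0.13 ± 0.11, CHAF1B at -0.17 ± 0.09 and UHRF1 at -0.01 ± 0.17. In all, 10 of the 40 differences were above 0. The highest value was that of POLD1, 0.39 ± 0.29, with the widest error. POLE at 0.11 ± 0.08 and POLA2 at 0.09 ± 0.09 were also above 0, and neither was called.

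The count of 5 depends on how the errors are combined: with the squared errors of both tables against knockout summed, it was 0, and 13 of all genes were called. That sum holds the knockout variance in both terms, although the knockout libraries cancel in the difference. The GC content of transcripts moved with this comparison. Over 11795 coding genes Spearman's rho between GC content and the derived difference was 0.32, and over the 40 genes it was 0.31. Against knockout it was 0.44 over coding genes and 0.48 over the 40 genes for FH-5xA, and 0.15 and 0.05 for FH-WT. These points share the libraries compared. The 5 called genes have GC contents of 43.7% to 48.1%, and the 40 genes have a median of 48.2%, beside 48.5% for coding genes. Centring on the median of coding genes of like GC content (10 bins), an alternative added after the values were seen, left 2 genes called: RFC4 at -0.44 (adjusted p = 0.018) and CCNE1 at -0.28 (adjusted p = 0.037). For FH-5xA against knockout the same centring left POLE without a call, and ORC6, RRM1 and RRM2 passed, at 0.29, 0.25 and 0.21.

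**Figure D5:**
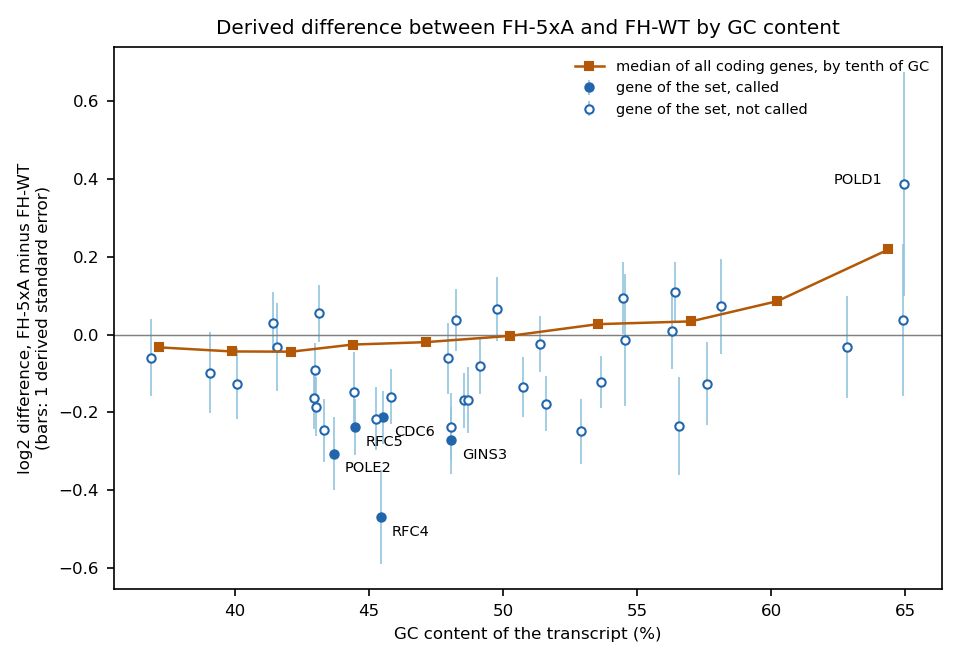
Derived log2 difference of FH-5xA minus FH-WT for the 40 genes (circles, filled where called, bars 1 derived standard error) against the GC content of their transcripts in percent. Squares join the median of all coding genes in each of 10 bins of GC content, which runs from -0.03 in the lowest bin to 0.22 in the highest. The 5 called genes lie between 43.7% and 48.1% GC, and POLD1, at 65.0%, has the highest value.

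Beyond the list, most of 41 other replication genes were lower in the knockout as well. Of them 32, in the authors' deposited table, were called lower, 5 higher and 4 not at all. Over all genes 21.2% were called lower and 23.2% higher. The median of the 41 genes was -0.39. The 4 with the smallest p were TOP2A, the topoisomerase that untangles copied DNA, at -0.63 ± 0.08, ASF1B, a histone chaperone, at -0.62 ± 0.08, GMNN, the inhibitor of CDT1, at -0.53 ± 0.07 and WDHD1, a fork protein, at -0.53 ± 0.07 in the authors' deposited table. The 5 called higher were ORC2, ORC5, MCM9, DBF4 and TOP1, of which ORC5 and DBF4 lie on chromosome 7, with TOP1 at 0.55 ± 0.14 in the authors' deposited table. ORC2 and ORC5, other subunits of the complex that holds ORC1 and ORC6, were at 0.20 ± 0.07 and 0.18 ± 0.07 there, per the authors' deposited table. In FH-5xA against FH-WT 2 of these 41 genes were called, both lower, where 4.11% of all genes were called, and without chromosome 7 it was 1 of 39. POLE3, a small subunit of polymerase epsilon, was at a derived -0.64 ± 0.14 (adjusted p = 0.0014) and DBF4, the activator of the CDC7 kinase, at -0.28 ± 0.08 (adjusted p = 0.030). POLE3 stood at 202 CPM in parental cells, 154 in the knockout, 207 with FH-WT and 133 with FH-5xA.

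Of 30 other genes of nucleotide metabolism 14 were called lower and 4 higher in the authors' deposited table for the knockout. Over all genes 21.2% were called lower and 23.2% higher there. The median of the 30 genes was -0.16. PRPS2, which makes the ribose phosphate donor of nucleotides, was at -1.04 ± 0.08, SHMT2, the mitochondrial serine enzyme of folate metabolism, at -0.67 ± 0.08 and DTYMK, the kinase after TYMS, at -0.80 ± 0.12 in the authors' deposited table. DUT, which makes the precursor that TYMS acts on, stood at -0.83 ± 0.13 in the authors' deposited table. RRM2B, the p53-induced form of the small reductase subunit, went the other way from RRM2, at 0.70 ± 0.10 in the authors' deposited table. RRM2B stood at 143 CPM in parental cells, 232 in the knockout, 180 with FH-WT and 199 with FH-5xA. It fell in FH-WT against knockout, by 0.37 ± 0.10 in the authors' deposited table, where RRM2 rose. NME1, a nucleoside diphosphate kinase, was the 1 gene of the 30 called in FH-5xA against FH-WT, where 4.11% of all genes were called. Its derived difference was -0.40 ± 0.10 (adjusted p = 0.0086).

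Of 27 measured regulators of S phase entry (the E2F, RB and CDK list) 14 were called lower and 4 higher in the knockout. Over all genes 21.2% were called lower and 23.2% higher there. The median of the 27 genes was -0.19 in the authors' deposited table. CDKN1A, the CDK inhibitor p21, stood at 84.6 CPM in parental cells, 348 in the knockout, 251 with FH-WT and 259 with FH-5xA. CCND1, cyclin D1, was at 370, 689, 575 and 533 CPM. SKP2, which marks CDK inhibitors for destruction, was at 136, 87.6, 98.1 and 87.7 CPM. CDKN2B, another CDK inhibitor, was at 0.97 ± 0.12 in the authors' deposited table. E2F1 and E2F2, activators of the replication genes, stood at -0.36 ± 0.10 and -0.34 ± 0.08 there, per the authors' deposited table. RB1 was called higher, at 0.44 ± 0.08 in the authors' deposited table. CDKN1B and CDKN2C, other CDK inhibitors, were called lower, at -0.20 and -0.30 in the authors' deposited table. RBL1, the RB relative p107, was called lower as well, at -0.32 in the authors' deposited table. RBL1 was also the 1 gene of the 27 called in FH-5xA against FH-WT, where 4.11% of all genes were called. Its derived difference was -0.34 ± 0.08 (adjusted p = 0.0023).

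Genes of mitosis were lower in the knockout as well. Of 24 listed G2 and M genes 23 were called lower and 0 higher in the authors' deposited table for the knockout. Over all genes 21.2% were called lower and 23.2% higher there. The median of the 24 genes was -0.53. NDC80, of the kinetochore, was at -1.003 ± 0.08, BIRC5 (survivin) at -0.76 ± 0.08, UBE2C, of the anaphase-promoting machinery, at -0.69 ± 0.08 and BUB1B, of the spindle checkpoint, at -0.61 ± 0.07 in the authors' deposited table. In FH-WT against knockout 10 of the 24 were called higher, where 4.21% of all genes were, and in FH-5xA 2, where 5.04% of all genes were, per the authors' deposited tables. In FH-5xA against FH-WT 23 of the 24 derived differences were below 0, with a median of -0.15, and 4 genes, CCNB2, AURKA, NUSAP1 and PRC1, were called lower, where 2.13% of all genes were. A lower value was therefore not particular to replication genes.

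Because AGO2 acts through microRNAs, the 3′ untranslated regions of the 40 genes were searched for the 7-base complement of the seed (bases 2 to 8) of 8 microRNAs, using the longest coding transcript of GENCODE 29. At least 1 match was found in 22 of the 40 genes (55%), against 64.9% of 11706 measured coding genes. Their 3′ regions had a median length of 968 bases, against 1357. The mature sequences with the most matches in the list, and that of let-7a, are printed from RefSeq with the seed in capitals:

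hsa-miR-17-5p: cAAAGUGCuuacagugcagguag
hsa-miR-200b-3p: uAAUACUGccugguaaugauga
hsa-miR-16-5p: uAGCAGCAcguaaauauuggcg
hsa-let-7a-5p: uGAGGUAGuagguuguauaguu

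CCNE1 and RRM2 are shown because the FH-WT level of CCNE1 passed the parental level and that of RRM2 came close to it. TYMS and POLE2, at 110% and 97.8% of the parental level in FH-WT, had no match to any of the 8 microRNAs. Each site stretch below has the 7 matched bases in capitals:

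CCNE1 miR-16-5p match at base 247: gcgtgctcccgaTGCTGCTatggaagg
CCNE1 miR-16-5p match at base 485: ctgttttgtaagTGCTGCTatatctat
RRM2 let-7a-5p match at base 136: aaaactgtgtagCTACCTCacaaccag
RRM2 miR-17-5p match at base 377: aatataaacctgGCACTTTacaaacaa

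Positions are counted from the first base of the 3′ untranslated region, which has 531 bases in CCNE1 and 2032 in RRM2. RRM2 also has a miR-200b-3p match at base 1659, which is not printed. Matches to miR-17-5p lay in 11 of the 40 genes (27.5%, against 25.4% of measured coding genes), to miR-200b-3p in 7 (17.5%, against 19.7%), to miR-16-5p in 6 (15.0%, against 25.2%) and to let-7a-5p in 3 (7.50%, against 11.3%). The median log2 fold change in the knockout was -0.53 over the 22 genes with a match and -0.62 over the 18 without. Over measured coding genes with a miR-17-5p match the median was 0.09 in the knockout, and over the 11 replication genes with one it was -0.55. No test was run on these medians, and a seed match is not a measured target site.

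Reads of some of these genes may be shared with others. Among the 40, 12 overlap a measured gene on the opposite strand: CCNE2, CHAF1A, FEN1, GINS2, GINS3, MCM2, POLA1, PRIM1, RFC4, RFC5, RPA1 and TYMS. Another 5 overlaps with a measured gene are on the same strand, where counting by strand would not separate the reads. They are FEN1 with FADS2 over 4265 bases, RFC3 with AL161891.1 over 4636, POLD3 with AP001372.2 over 4683, CHAF1B with MORC3 over 771 and PRIM1 with NACA over 33. On the opposite strand the overlap is 21 bases for RFC4 with EIF4A2 and 437 for RFC5 with WSB2. A further source is pseudogenes that carry a member's name in GENCODE 29, which exist for FEN1, PCNA, RFC3, RFC5, RPA2, RRM2 and TYMS. Their part in the values above was not tested.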

How the data were processed

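Whole-transcriptome RNA libraries of 12 HCT116 samples in 4 groups were compared in 5 deposited tables. The tools edgeR 3.8.6, featureCounts 1.4.6, TopHat2 2.0.12 and Cufflinks 2.2.1 are named, with the hg38/GRCh38 build, per the submitters' processing notes. Ribosomal RNA was depleted and libraries were stranded, per the labels. The sources used here give neither annotation, filter on low counts, normalization factors nor strand of counting. The authors' deposited tables hold, per the file headers, log2 fold changes and mean log2 CPM of each gene, a likelihood ratio score, and a p-value with its FDR. All 5 tables list the same 15074 genes, and no column was left out. Counts per library were not analysed here, so depth is unknown.

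From these values an SE was derived as the absolute log2 fold change over the square root of the score. Fitted levels in CPM follow the deposited fold changes, with their mean over the 4 groups set to the deposited mean expression. For FH-5xA against FH-WT, the 2 fold changes against knockout were subtracted, group variances were solved by least squares from 5 squared SEs, and chi-square p-values (1 degree of freedom) were adjusted across 15072 genes by Benjamini-Hochberg. The code was tested on simulated data. Symbols were found for 14974 identifiers, and 15029 were in GENCODE 29, which gave GC content, length and 3′ untranslated regions. Python 3.11.15, numpy 2.4.6, scipy 1.17.1 and pandas 2.3.3 were used.

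The members and lists were chosen with earlier results of these data known. All 40 genes were named with their change in the knockout. Levels in all groups were given for up to 4 genes per role with the smallest p in knockout against parental, those called in FH-5xA against FH-WT, and those with a caution. Other lists were named by the same rule. ORC2, ORC5, MCM9, TOP1, DUT, E2F1, E2F2, RB1, CDKN1B and CDKN2C were named after their values were seen. Alternatives were a stricter FDR, a minimum fold, an expression minimum, centring, leaving out chromosome 7, Holm adjustment and other error sums. Centring by GC content or length was chosen after seeing the data.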

Additional observations from a re-analysis of the deposited data

Results flagged for a closer look

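The 5 differences between the restored lines, each tested on its own, are listed again because effects under the same contrast, restored against knockout, differed between FH-WT and FH-5xA. RFC4 was at a derived log2 difference of -0.47 (FH-5xA minus FH-WT), POLE2 at -0.31, GINS3 at -0.27, RFC5 at -0.24 and CDC6 at -0.21. The Benjamini-Hochberg adjusted p of RFC4 was 0.0090 and ran from 0.0073 to 0.49 over 10 alternatives (1 with Holm adjustment), 6 of which called it. For the others it ran to at least 0.61 without Holm adjustment, with CDC6 and RFC5 called in 4 of 10 alternatives and GINS3 and POLE2 in 3. Centred by GC content, adjusted p-values were 0.018 for RFC4, 0.0995 for CDC6, 0.0805 for GINS3, 0.0718 for POLE2 and 0.0790 for RFC5. How far GC content enters these differences was not tested beyond this centring.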

How the results depend on the processing

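Counts per library were not analysed here, so the planned fits without each library were not run. No paired analysis was possible because the deposited tables hold no values per library. Lower mRNA in the knockout held in direction for all 40 genes except TYMS, with 25 to 37 genes called under every alternative. The counts against knockout rest on small changes. With a log2 change of at least 0.5 required, calls numbered 1 for FH-WT and 0 for FH-5xA against knockout. They numbered 6 for FH-WT and 18 for FH-5xA against parental cells, all lower, and 0 for FH-5xA against FH-WT. Over all genes the same minimum gave 474, 612, 2438, 3159 and 230 calls in that order, in either direction. Against parental cells, 988 of all genes were called lower for FH-WT and 1151 for FH-5xA. With Holm adjustment calls in the list numbered 1, 0, 16, 19 and 0 in the same order, and 241, 303, 1629, 2402 and 44 over all genes. At an FDR under 0.01 there was 1 call for FH-5xA against knockout and 1 for FH-5xA against FH-WT, where 895 and 182 of all genes were called. With errors against knockout or against parental cells summed, FH-5xA against FH-WT had 0 calls in the list, and 13 or 17 over all genes, where 620 were called otherwise. Each sum holds the variance of the shared group in both terms, although that group cancels in the difference. Centred by GC content FH-5xA against FH-WT had 2 calls (430 over all genes), 1 of them among the 5.

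Of 2000 alternative results for single genes 20 changed sign, none of them called before. With centring by transcript length these were TYMS in knockout against parental cells (0.024), MCM6 (0.0093), PRIM2 (-0.040) and PRIM1 (-0.064) in FH-WT against knockout, RFC5 (-0.011) and RFC4 (-0.0081) in FH-5xA against knockout, POLE2 in FH-WT (0.013) and CCNE1 in FH-5xA (0.053) against parental cells. With centring by GC content they were POLD1 (-0.036) and MCM6 (0.013) in FH-WT against knockout, CDC6 (0.022), PRIM2 (0.039), TK1 (-0.059) and GINS3 (0.019) in FH-5xA against knockout, and LIG1 (-0.024), PRIM2 (0.013) and CDT1 (-0.18) in FH-5xA against FH-WT. With centring on the median of all genes they were POLD1 (-0.0023) and PRIM2 (-0.0056) in FH-WT against knockout and CCNE1 (0.0015) in FH-5xA against parental cells. The cause was not tested.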
